A study of Mus musculus with 24 samples.

Results

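Normal postnatal maturation of the mouse cerebral cortex between 1 and 3 months of age was followed in 6 small RNA libraries from wild-type (WT) mice, 3 taken at 1 month and 3 at 3 months. They were chosen by genotype and age from 24 libraries, and all miRNA names in them were used. The series sets WT mice beside APP/PS1 mice, which carry transgenes for mutant human amyloid precursor protein and presenilin 1 and model Alzheimer disease, at 1, 3, 6 and 9 months. All mice are of strain C57BL/6, the WT mice carry no transgene by their label, and no treatment is named for any group. The title gives the tissue as cerebral cortex and the tissue label as brain. Each age group held 2 female mice and 1 male. The labels do not say which library came from which, so no test took account of sex, and it cannot be told apart from the spread between mice.

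Mature miRNAs are cut from hairpin precursors, and either arm of a hairpin (5p or 3p) can be kept. Bases 2 to 8 from the 5′ end, the seed, do most of the pairing with target mRNAs, so that members of a family with 1 seed share many targets. In the brain, miR-124 is the hallmark miRNA of neurons, the miR-29 family is known to rise as neurons mature, and the imprinted Dlk1-Dio3 region carries a large array of miRNAs on its maternally expressed noncoding RNAs (Meg3, Rian, Mirg), many of them known for roles in dendrites and synapses.

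The sequences of the miRNAs on which the comparison turned are those of RefSeq on GRCm38.p6, read 5′ to 3′ with the seed in capitals. Those of the miR-29 family, whose 3p arms led the miRNAs that were higher at 3 months, share 1 seed.
miR-29a-3p: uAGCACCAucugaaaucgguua
miR-29b-3p: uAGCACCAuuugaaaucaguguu
miR-29c-3p: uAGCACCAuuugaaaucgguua
The miRNAs of the Dlk1-Dio3 region that led those lower at 3 months have seeds that differ from each other.
miR-412-5p: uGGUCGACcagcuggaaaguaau
miR-1197-3p: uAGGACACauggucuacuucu
miR-433-5p: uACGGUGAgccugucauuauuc
miR-323-3p: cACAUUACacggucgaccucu
miR-409-5p: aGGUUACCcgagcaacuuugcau
miR-496a-3p: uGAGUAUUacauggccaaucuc
miR-666-5p: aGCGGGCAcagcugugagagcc
miR-666-3p: gGCUGCAGcgugaucgccugcu
The region also gave a pair of 5p arms that were higher at 3 months.
miR-376b-5p: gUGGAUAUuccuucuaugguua
miR-540-5p: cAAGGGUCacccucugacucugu
Outside the region, miR-218-5p and miR-26a-5p were higher, and miR-19a-3p and miR-19b-3p, which share a seed, were lower.
miR-218-5p: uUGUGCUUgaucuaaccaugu
miR-26a-5p: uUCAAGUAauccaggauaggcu
miR-19a-3p: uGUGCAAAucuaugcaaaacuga
miR-19b-3p: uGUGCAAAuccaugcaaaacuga

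The deposited counts of the 6 libraries summed to between 3041234 and 5721158, and 433 names had enough counts in the series to be tested. Levels are given as CPM, counts scaled to a common library total, with TMM factors, which set each total by the bulk of its names. In all 6 libraries miR-124-3p held the most counts. Levels of different names are counts and not molecules, since some, such as the oligodendrocyte miRNA miR-219a-5p at 0 counts in each of them, were hardly counted. In a whole tissue, fewer cells of a type and less RNA per cell cannot be told apart.

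Between 1 and 3 months 42 miRNAs changed in WT cortex (9.7% of the 433 tested), of which 11 rose (2.54%) and 31 fell (7.16%). Those that rose were led by miR-29 3p arms and included the neuronal miR-124-3p and miR-218-5p. Of 16 tested neuron-enriched names these 2 rose, 1 fell and 13 did not pass (median log2 fold change 0.09). Of the 31 that fell, 25 come from the Dlk1-Dio3 region. The median log2 fold change was 0.60 among those that rose and -0.65 among those that fell, against -0.04 over all tested.

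The call was an adjusted p under 0.05 in edgeR's quasi-likelihood test (Benjamini-Hochberg over all 433), and 104 names had an unadjusted p under 0.05. All 42 had no overlap between the libraries of the 2 ages, which was so of 33.7% of all tested names (15.7% higher, 18.0% lower). The split of calls depended on the scaling: 16 rose and 28 fell with RLE factors, and 6 rose and 55 fell with unscaled library totals, where the median over all names moved from -0.04 to -0.22. DESeq2 called 58 (13.4%), 22 higher and 36 lower. In a fit of the 6 libraries alone 23 rose and 28 fell, and with a replicate block in that fit 10 rose and 16 fell.

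The miR-29 3p arms led the rise, and the summed level of the family went from 1674 ± 132 to 3307 ± 139 CPM (SD, n = 3). miR-29b-3p stood at 762, 784 and 913 CPM in the 3 libraries at 1 month and at 1708, 1856 and 1888 CPM at 3 months. miR-29c-3p stood at 657, 694 and 744 CPM at 1 month and at 1276, 1379 and 1164 CPM at 3 months. The rarer miR-29a-3p stood at 25.2, 28.5 and 27.3 CPM at 1 month and at 57.1, 58.3 and 52.3 CPM at 3 months. In each of them the highest library at 1 month lay far below the lowest at 3 months.

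The log2 fold change was 1.15 for miR-29b-3p (SE 0.10, edgeR adjusted p = 1.15e-07), 0.87 for miR-29c-3p (SE 0.09, adjusted p = 6.46e-07) and 1.05 for miR-29a-3p (SE 0.11, adjusted p = 7.15e-07). Of the 5 tested members of the family 3 rose, and the family median was 0.87. The others were 5p arms, miR-29c-5p at 0.31 (adjusted p = 0.102) and miR-29b-2-5p at 0.33 (adjusted p = 0.171), whose libraries also did not overlap. Summed over the 5, the family held between 1580.5 and 1826 CPM at 1 month and between 3204 and 3465 CPM at 3 months. The calls of all 3 arms held in each of the 6 fits that left out a library.

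These arms come from separate places in the genome (GRCm38). On the minus strand of chromosome 6 are Mir29a, at 31062660 to 31062747, and Mir29b-1, at 31063023 to 31063093, in no other annotated gene. On the plus strand of chromosome 1 are Mir29b-2, at 195037040 to 195037120, and Mir29c, at 195037547 to 195037634, inside the noncoding A330023F24Rik and on the strand opposite to the protein-coding Cd46. The mature miR-29b-3p is the same from both of its precursors, so its counts cannot be assigned to a chromosome.

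**Figure D1:**
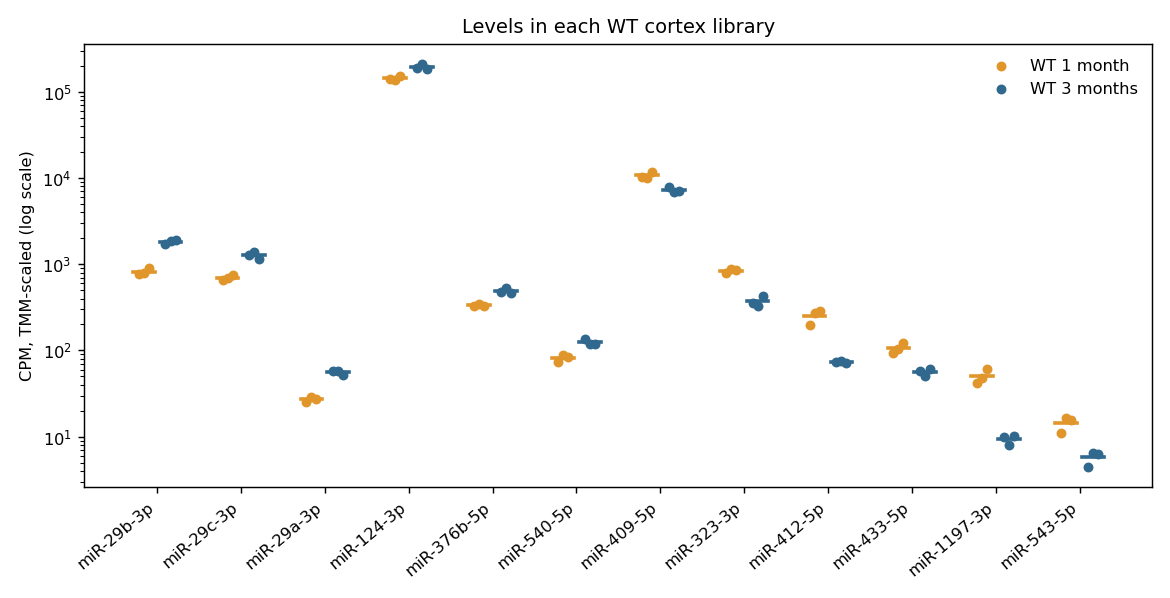
Level of leading miRNAs in each of the 6 WT libraries (CPM on a log axis) at 1 and 3 months, with a point for each library and a bar at each group mean. For every miRNA shown the libraries of the 2 ages do not overlap.

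In the Dlk1-Dio3 region 25 of 91 tested miRNAs fell and 2 rose, while 77 of the 91 had a log2 fold change below 0. Over all tested names 231 of 433 lay below 0. The median over the region was -0.26, and over the tested names outside it 0.05. The region was assigned by miRNA name, and predicted names, whose positions are not given here, were counted as outside it. Of the names outside the region 9 rose, 6 fell and 327 did not pass, and 154 lay below 0 and 188 above. Summed over the region, the level was 80063, 84236 and 92534 CPM at 1 month and 72008, 70661 and 72160 CPM at 3 months. Of the 91, 46 lay lower and 6 higher with no overlap between the ages, beside 18.0% lower and 15.7% higher over all tested names. Among the tested names outside the region, which outnumber those in it, 32 lay lower and 62 higher without overlap. With RLE or upper quartile factors 23 fell and 2 rose, and with unscaled library totals 40 fell and 1 rose.

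The fall was steepest in miR-1197-3p and miR-412-5p. miR-412-5p stood at 195.6, 271.5 and 288.7 CPM at 1 month and at 73.1, 75.8 and 70.6 CPM at 3 months, a log2 fold change of -1.78 (SE 0.19, edgeR adjusted p = 7.15e-07). miR-1197-3p stood at 41.7, 48.0 and 61.6 CPM at 1 month and at 9.94, 7.93 and 10.2 CPM at 3 months, a log2 change of -2.43 (SE 0.30, adjusted p = 6.25e-06). The level of miR-1197-3p at 3 months rests on 36 to 47 counts per library, against up to 320 at 1 month. The 3-month libraries of each lay close together and far below those at 1 month.

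miR-323-3p stood at 799, 871 and 854 CPM at 1 month and at 351, 326 and 433 CPM at 3 months, a log2 fold change of -1.19 (SE 0.17, edgeR adjusted p = 5.06e-05). miR-433-5p stood at 92.9, 102.7 and 122.3 CPM at 1 month and at 58.0, 51.1 and 60.4 CPM at 3 months, a log2 change of -0.91 (SE 0.13, adjusted p = 5.06e-05). Its other arm, miR-433-3p, stood at 938, 1159 and 1308 CPM at 1 month and at 682, 620.1 and 789 CPM at 3 months (-0.70, SE 0.20, adjusted p = 0.0274). The ages did not overlap for any of these, although the call of miR-433-3p held in only 2 of the 6 fits that left out a library.

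The fall was not limited to rare miRNAs. miR-409-5p, the most counted of those that fell, stood at 10399, 10117 and 11890 CPM at 1 month and at 7901, 6924 and 7136 CPM at 3 months, a log2 fold change of -0.56 (SE 0.10, edgeR adjusted p = 0.000464). miR-541-5p stood at 8058, 8048 and 8944 CPM at 1 month and at 6495, 6412 and 7291 CPM at 3 months (-0.31, SE 0.08, adjusted p = 0.0119). The changes of these abundant arms were smaller than those of miR-412-5p and miR-1197-3p, but again no library of one age reached the range of the other. Other abundant arms of the region did not pass. Among them, by mean level at 1 month, were miR-434-5p at 11922 CPM (log2 fold change -0.15), miR-434-3p at 10473 CPM (-0.25) and miR-136-3p at 8263 CPM (-0.03). miR-541-5p, miR-434-5p, miR-434-3p and miR-136-3p, like miR-379-5p, miR-488-3p, miR-7b-5p, miR-134-5p, miR-486a-3p and miR-486b-3p further on, were chosen for mention after their values were seen.

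Both arms fell from some hairpins. The pair from Mir666 fell by 1.31 (5p) and 1.23 (3p) on the log2 scale, with 381, 493 and 512 CPM of miR-666-5p at 1 month and 182.4, 151 and 224 CPM at 3 months (edgeR adjusted p = 0.00596). miR-382-5p and miR-382-3p fell by 0.54 (adjusted p = 0.00172) and 0.44 (adjusted p = 0.0141), and miR-412-3p by 0.98 (adjusted p = 0.00209). The remaining names that fell with the smallest p were miR-496a-3p (-0.65), miR-380-5p (-0.84), miR-543-5p (-1.32), miR-494-3p (-0.62) and miR-329-3p (-0.44), with adjusted p between 0.000486 and 0.00531. miR-487b-3p, also on the list of neuron-enriched miRNAs, fell by 0.64 (adjusted p = 0.0139), a call that held in 1 of the 6 fits that left out a library. miR-134-5p, known for limiting the size of dendritic spines, had a log2 fold change of -0.40 and did not pass (adjusted p = 0.16).

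The tested names of the region come from 51 precursors over 184.269 kb of chromosome 12, from Mir770 (start 109563692) to Mir3072 (end 109747960). Stretches of it were drawn by the GENCODE M21 annotation. Opposite the protein-coding Rtl1, 4 of 10 tested miRNAs fell (median log2 fold change -0.21), and the 2 tested from within Meg3 had a median of -0.65 with 0 passing. Between Meg3 and Rtl1 1 of 10 fell and 1 rose (median -0.23). Within Rian 0 of 3 passed (median -0.18). Between Rian and Mirg 11 of 43 fell and 1 rose (median -0.26), and within Mirg 9 of 23 fell (median -0.31).

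One stretch of 5.531 kb, from Mir380 to Mir543, held 9 of the 25 that fell, and all of its 17 tested miRNAs from 10 precursors had a log2 fold change below 0 (median -0.62). Its bounds were drawn after the values were seen, so this is a description. It includes Mir1197 (109712317 to 109712436), Mir323 (109712508 to 109712593) and Mir666 (109717085 to 109717183). Mir412 (109743289 to 109743368), inside Mirg, lies outside it, beside Mir409 (109743158 to 109743236). Between these stretches some miRNAs overlapped between the ages, such as miR-376b-3p (log2 fold change 0.01, edgeR adjusted p = 0.951). It stood at 919, 1018 and 1340 CPM at 1 month and at 1160, 1053 and 1098 CPM at 3 months. Others there fell, namely miR-487b-3p (-0.64), miR-382-3p (-0.44), miR-382-5p (-0.54), miR-496a-3p (-0.65) and miR-541-5p (-0.31), and miR-376b-5p rose (0.56).

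**Figure D2:**
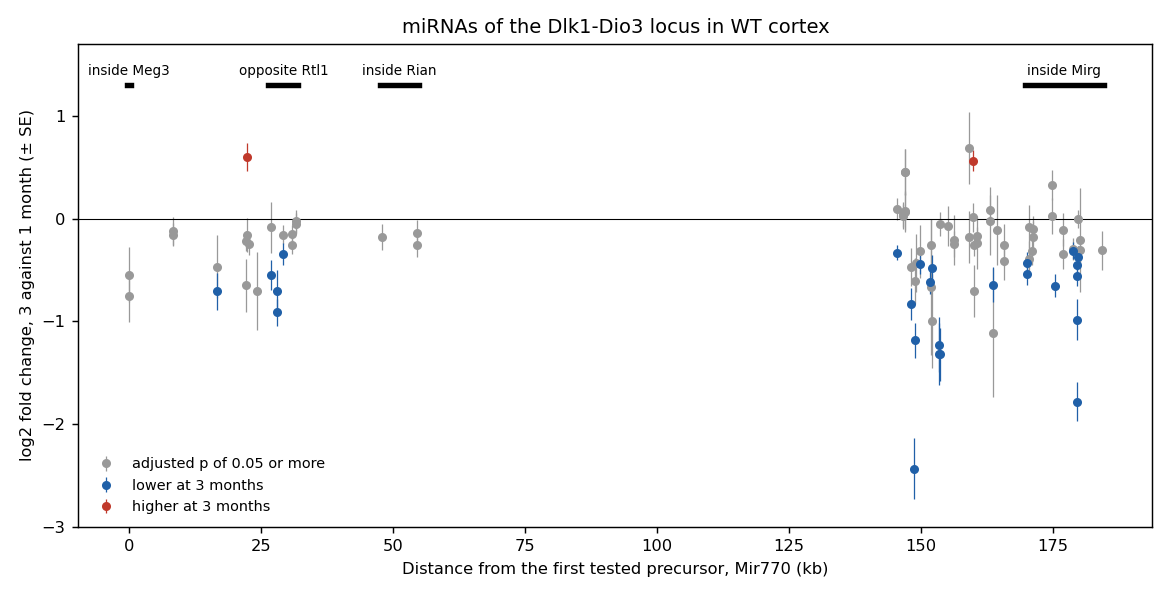
Log2 fold change of the 91 tested Dlk1-Dio3 miRNAs (3 months over 1 month, WT) against the distance of their precursor from the first precursor in kilobases, with SE bars, colours for those that fell (blue) or rose (red), and black bars over the precursors inside or opposite a named gene. Of the 91 points 77 lie below 0, and the lowest is miR-1197-3p at -2.43.

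Against the direction of the region, a pair of 5p arms rose. miR-376b-5p stood at 326, 343 and 329 CPM at 1 month and at 482, 529 and 466 CPM at 3 months, a log2 fold change of 0.56 (SE 0.10, edgeR adjusted p = 0.00101). miR-540-5p stood at 72.9, 87.7 and 84.9 CPM at 1 month and at 134.7, 118.8 and 119.6 CPM at 3 months, a log2 change of 0.60 (SE 0.13, adjusted p = 0.00523). Their 3p arms did not pass, with log2 fold changes of 0.01 for miR-376b-3p and -0.16 for miR-540-3p. The call of miR-540-5p was lost with unscaled library totals (adjusted p = 0.0927).

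The ratio of the arms of a hairpin within a library does not depend on library scaling. Arms were matched by name, so that a name such as miR-124 can pool several hairpins, and miR-486a and miR-486b gave the same counts. Over 123 such pairs with both arms tested, the log2 ratio of 5p to 3p counts changed in 4 (3.25%, limma, adjusted p under 0.05). Their hairpins are shown with both arms in capitals.
Mir29c: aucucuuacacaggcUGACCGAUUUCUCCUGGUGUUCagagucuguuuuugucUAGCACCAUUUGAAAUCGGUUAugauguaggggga
Mir543: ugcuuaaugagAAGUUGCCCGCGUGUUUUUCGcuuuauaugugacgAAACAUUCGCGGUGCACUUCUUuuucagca
Mir412: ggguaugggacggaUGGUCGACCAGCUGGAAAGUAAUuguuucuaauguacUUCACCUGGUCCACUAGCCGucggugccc
Mir540: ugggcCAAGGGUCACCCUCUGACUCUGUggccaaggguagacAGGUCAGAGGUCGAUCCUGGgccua

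For miR-29c the log2 ratio of 5p to 3p was -2.61, -2.98 and -2.73 at 1 month and -3.27, -3.36 and -3.34 at 3 months, a change of -0.55 (SE 0.11, limma adjusted p = 0.00345). The 3p arm had risen, and the 5p arm was at 0.31 without passing. For miR-412 it was 3.02, 3.38 and 3.46 at 1 month and 2.42, 2.50 and 2.57 at 3 months, a change of -0.78 (SE 0.16, adjusted p = 0.00345). Both arms of miR-412 fell, the more abundant 5p arm further. 

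For miR-543 the ratio was -5.13, -4.57 and -4.71 at 1 month and -6.34, -5.69 and -6.14 at 3 months, a change of -1.25 (SE 0.25, limma adjusted p = 0.00345). Its rare 5p arm fell while miR-543-3p, at 391, 394 and 415 CPM and then 369, 337 and 452 CPM, had a log2 fold change of -0.05 (edgeR adjusted p = 0.826). For miR-540 the ratio was 0.36, 0.52 and 0.70 at 1 month and 1.34, 1.62 and 0.98 at 3 months, a change of 0.79 (SE 0.17, limma adjusted p = 0.00567). In all 4 hairpins the ratios of the ages did not overlap. In a fit of the 6 libraries alone 0 of the 4 passed (adjusted p between 0.111 and 0.13, with 19 of 123 at an unadjusted p under 0.05), and miR-540 was lost without WT 3-month replicate 2 (change 0.63, adjusted p = 0.0724). The next hairpin, miR-379, had a change of -0.42 (adjusted p = 0.0636).

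**Figure D3:**
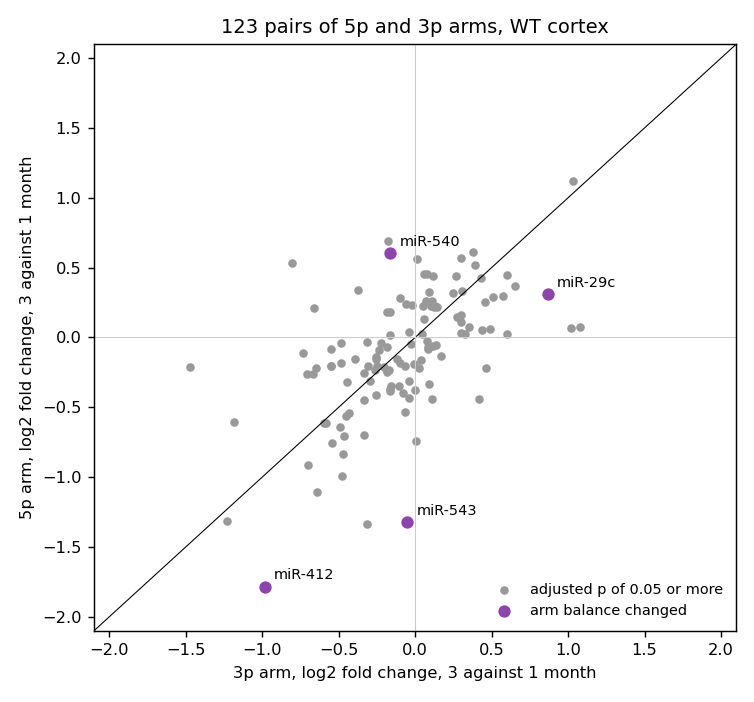
Log2 fold change of the 5p arm against that of the 3p arm (3 months over 1 month, WT) for the 123 pairs of arms, matched by name, that were both tested. The 4 whose ratio changed, miR-29c, miR-412, miR-543 and miR-540, lie off the diagonal of equal change.

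Among miRNAs enriched in neurons, 2 of 16 tested rose and 1 fell, miR-487b-3p above, with a median log2 fold change of 0.09. Over all 433 tested names 2.54% rose and 7.16% fell, and the list was not tested as a set. miR-124-3p stood at 140066, 137018 and 152037 CPM at 1 month and at 188574, 209820 and 183503 CPM at 3 months, a log2 fold change of 0.44 (SE 0.10, edgeR adjusted p = 0.00531). miR-218-5p, enriched in neurons and cut from precursors within the axon guidance genes Slit2 and Slit3, stood at 2352, 2409 and 2419 CPM at 1 month and at 3572, 3205 and 2956 CPM at 3 months (0.44, SE 0.10, adjusted p = 0.00776). Every 3-month library lay above every 1-month library for each of them, but the call of miR-218-5p was lost with unscaled library totals (0.25, adjusted p = 0.144).

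Other neuronal miRNAs did not pass. miR-9-5p stood at 70701, 58578 and 59431 CPM at 1 month and at 63498, 64392 and 53306 CPM at 3 months (log2 fold change -0.06, adjusted p = 0.826). miR-128-3p stood at 40423, 40058 and 38601 CPM and then 38051, 44111 and 38213 CPM (0.02, adjusted p = 0.937). The other most counted names were miR-99a-5p (0.14, adjusted p = 0.464) and miR-125b-5p (0.24, adjusted p = 0.367). The ages overlapped for miR-9-5p, miR-128-3p and miR-99a-5p but not for miR-125b-5p. With unscaled library totals the median of the neuron list was -0.09, the other sign.

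Of 6 tested miRNAs regulated by neuronal activity 0 passed (median 0.20, or 0.02 with unscaled library totals). Their best known member, the CREB target miR-132-3p, stood at 1982, 2038 and 2364 CPM at 1 month and at 2444, 3385 and 2555 CPM at 3 months (0.39, adjusted p = 0.205). Its partner arm miR-132-5p had a log2 fold change of 0.52 (adjusted p = 0.0601) and passed with RLE factors (adjusted p = 0.0453) and in DESeq2 (adjusted p = 0.0223). Neither arm overlapped between the ages. Of the 9 tested members of the let-7 family, known for rising as tissues mature, 0 passed (median 0.20, or 0.01 with unscaled library totals, where 1 fell).

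The rest of those that rose were miR-26a-5p, miR-26b-3p, miR-30b-5p and the muscle miRNA miR-133a-3p. miR-26a-5p, cut from precursors within the phosphatase genes Ctdspl and Ctdsp2, stood at 68870, 77683 and 73086 CPM at 1 month and at 91073, 93438 and 96370 CPM at 3 months (0.35, SE 0.11, edgeR adjusted p = 0.0391). miR-26b-3p, from a precursor within their paralog Ctdsp1, rose from 12.7, 15.7 and 12.7 CPM to 22.6, 19.2 and 23.1 CPM (0.65, SE 0.20, adjusted p = 0.0431), and its abundant partner miR-26b-5p was at 0.37 (adjusted p = 0.0666). miR-30b-5p, of the broadly expressed miR-30 family, rose by 0.55 (SE 0.14, adjusted p = 0.0126). Of these, miR-26a-5p and miR-26b-3p each passed in 1 of the 6 fits that left out a library, and 0 of the 3 passed with unscaled library totals.

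miR-133a-3p stood at 91.4, 80.5 and 91.3 CPM at 1 month and at 123.4, 176.3 and 142.3 CPM at 3 months (0.75, SE 0.18, edgeR adjusted p = 0.00776). Without WT 3-month replicate 2, its highest library, it did not pass (0.59, adjusted p = 0.0679). Of 6 tested markers of striated muscle and liver it was the 1 that passed. All 6 had a log2 fold change above 0 (median 0.45), and their summed level was 288 to 415 CPM at 1 month and 385 to 663 CPM at 3 months, with WT 3-month replicate 2 the highest. The part of other tissue in this result was not tested.

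Outside the Dlk1-Dio3 region 6 miRNAs fell, counting a predicted one whose position is not given here. Of the 6, 3 belong to the miR-17-92 cluster and its paralogs, known for promoting the division of progenitor cells. miR-19b-3p stood at 213.8, 124.2 and 168.5 CPM at 1 month and at 104.6, 118.4 and 103.7 CPM at 3 months (-0.63, SE 0.16, edgeR adjusted p = 0.0116). miR-19a-3p fell by 0.82 (SE 0.23, adjusted p = 0.0259) and miR-17-3p by 0.74 (SE 0.23, adjusted p = 0.0431). All 7 tested members had a log2 fold change below 0 (median -0.58), and their summed level was 664 to 847 CPM at 1 month and 584 to 658 CPM at 3 months. WT 1-month replicate 1 was the highest library for all 3, and without it 0 of them passed (miR-19b-3p -0.38, adjusted p = 0.141; miR-19a-3p -0.45, adjusted p = 0.217; miR-17-3p -0.50, adjusted p = 0.244). In the fit of the 6 libraries alone 0 of them passed.

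The remaining names that fell were miR-488-3p, from a precursor within the neuronal gene Astn1, miR-3078-5p, and a predicted miRNA. miR-488-3p stood at 1570, 1846 and 1959 CPM at 1 month and at 1433, 1339 and 1317 CPM at 3 months (-0.39, SE 0.10, edgeR adjusted p = 0.0105). miR-3078-5p stood at 20.0, 23.0 and 26.8 CPM and then 6.35, 10.1 and 12.9 CPM (-1.24, SE 0.25, adjusted p = 0.00191). The predicted miRNA, whose levels over the 24 libraries were most like those of miR-666-5p (Pearson r of log2 CPM 0.78) and next miR-433-3p (0.75), fell by 1.08 (SE 0.33, adjusted p = 0.0431).

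Markers of other cell types were few, and with 9.7% of all names called, lists of this size would hold under 1 call each at that share. Among tested miRNAs 0 of 9 immune and microglial (median -0.01), 0 of 4 endothelial and vascular muscle (0.25), 0 of 5 fibroblast and meningeal (-0.16), 0 of 4 choroid plexus (-0.45) and 0 of 7 erythrocyte (-0.49) passed. All 7 erythrocyte markers, which hold only 5 distinct sets of counts, lay below 0. Their sums were 1018 to 1528 CPM at 1 month and 947 to 1162 CPM at 3 months. The choroid plexus sum was 534 CPM in WT 1-month replicate 2 and 258 and 263 CPM in the other 1-month libraries, against 181.8 to 266.3 CPM at 3 months. Of 9 oligodendrocyte markers 1 could be tested, miR-338-3p, at 2.31, 1.25 and 2.89 CPM and then 4.42, 4.24 and 2.62 CPM (0.77, adjusted p = 0.153). The pair of tested pituitary and hypothalamus markers, of which 0 passed, summed to 8634 to 11949 CPM at 1 month and 4245 to 8748 CPM at 3 months, with miR-7b-5p at -0.74 (adjusted p = 0.0501). The part of these cell types in the calls was not tested.

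One feature of sequence, not used in choosing the libraries, was counted. Of 358 tested names matched to a RefSeq mature sequence, 36.0% hold a CG dinucleotide, and of the 28 matched names that fell 18 do (64.3%), while 10 do not, among them miR-1197-3p, miR-496a-3p, miR-19a-3p and miR-19b-3p. Within the Dlk1-Dio3 region 18 of the 24 matched names that fell hold CG (75.0%), as in the seeds of miR-412-5p and miR-666-5p above. Of the 64 that did not pass as lower, 31 hold it (48.4%). Outside the region 80 matched names hold CG and 0 of them passed as lower. The feature was noticed after the values were seen and was not tested, it is commoner in the region (49 of 88), and the median log2 fold change of names of the region with CG was -0.31 and without it -0.26.

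The same age step was taken in APP/PS1 mice, which share no library with the WT comparison, and there 8 of 433 miRNAs passed (1.85%), 2 that rose (0.462%) and 6 that fell (1.39%). That count was 3 with upper quartile factors, 14 with unscaled library totals, 15 in DESeq2, 60 with a replicate block in its 6 libraries alone (where WT gave 26), and 4 without APP/PS1 1-month replicate 3 or without APP/PS1 3-month replicate 1. Of the 8, 6 also passed in WT, which is 6 of the 42 WT calls. They were miR-29b-3p, miR-29c-3p, miR-412-5p, miR-1197-3p, miR-433-5p and miR-409-5p, and the others were miR-486a-3p and miR-486b-3p, found in red blood cells and counted identically. The log2 fold change in APP/PS1 was 0.75 for miR-29b-3p (adjusted p = 9.16e-05), 0.38 for miR-29c-3p (adjusted p = 0.0197), -1.36 for miR-412-5p (adjusted p = 9.16e-05) and -1.65 for miR-1197-3p (adjusted p = 0.00154).

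Of the 42 miRNAs that changed in WT, 40 had the same sign in APP/PS1, against 333 of all 433 (76.9%), and the exceptions were miR-379-5p and miR-409-3p, each at 0.01. All 42 were larger in WT, but they were chosen by their WT values. The difference between the genotypes in this step passed for 0 of 433 names in edgeR (0.0%), with 21 at an unadjusted p under 0.05, and for 3 in DESeq2. miR-29c-3p rose by 0.48 more in WT on the log2 scale (SE 0.12, edgeR adjusted p = 0.121; DESeq2 adjusted p = 0.00575), from 698 ± 43.4 CPM in WT and 1001 ± 55.0 CPM in APP/PS1 at 1 month to 1273 ± 108 and 1307 ± 42.7 CPM at 3 months (SD, n = 3). miR-29a-3p rose by 0.65 more (SE 0.15, adjusted p = 0.0831; DESeq2 adjusted p = 0.0443), from 27.0 and 40.3 CPM to 55.9 and 53.04 CPM.

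miR-376a-3p went opposite ways in the genotypes without passing in either. It stood at 30.4, 25.5 and 33.3 CPM at 1 month and at 18.49, 17.33 and 18.96 CPM at 3 months in WT (-0.71, edgeR adjusted p = 0.0808), and in APP/PS1 at 16.1 to 24.3 CPM and then 29.8 to 41.9 CPM (0.85, adjusted p = 0.0836). The difference was -1.55 (SE 0.35, adjusted p = 0.0831; DESeq2 adjusted p = 0.00575). Over the alternatives run its adjusted p lay between 0.00198 and 0.226.

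**Figure D4:**
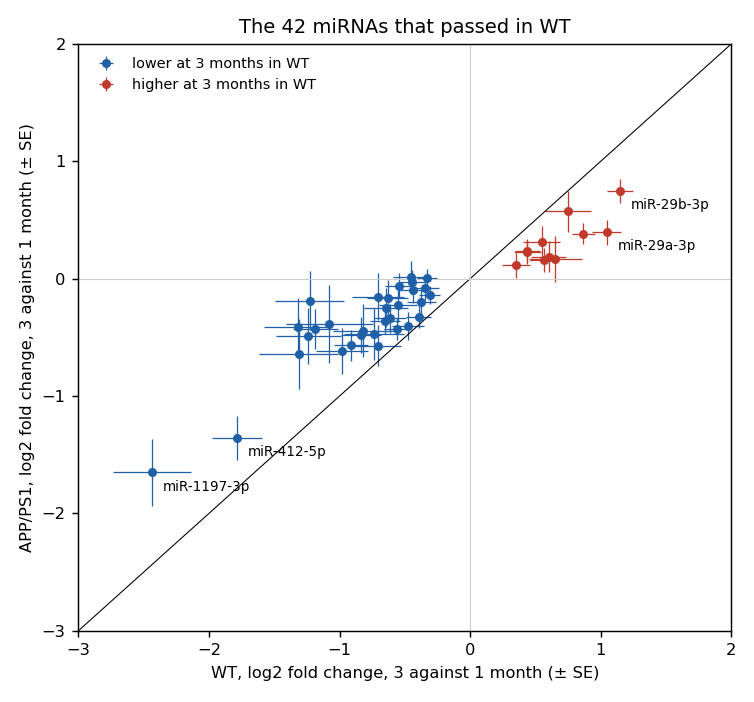
Log2 fold change between 3 and 1 month in APP/PS1 mice (vertical) against that in WT mice (horizontal), each with its SE, for the 42 miRNAs that passed in WT and so were chosen by their WT values. The diagonal marks equal change, and 40 of the 42 have the same sign in both genotypes.

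Levels in WT mice at 6 and 9 months are given without a test. miR-29b-3p stood at 1792 to 2311 CPM at 6 months and 2028 to 2280 CPM at 9 months, miR-29c-3p at 1292 to 1458 and 1320 to 1428 CPM, beside 1164 to 1379 CPM at 3 months. miR-412-5p stood at 33.9 to 39.3 CPM at 6 months and 40.3 to 45.0 CPM at 9 months, below its 3-month libraries. miR-1197-3p stood at 5.94 to 9.54 and 7.93 to 11.9 CPM, over the range it had at 3 months. The summed Dlk1-Dio3 level was 66468 to 69245 CPM at 6 months and 73545 to 78822 CPM at 9 months, so that at 9 months it lay above all 3-month libraries and below all 1-month libraries. miR-124-3p stood at 163868 to 191621 CPM at 6 months and 165346 to 184801 CPM at 9 months, overlapping its 3-month libraries.

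**Figure D5:**
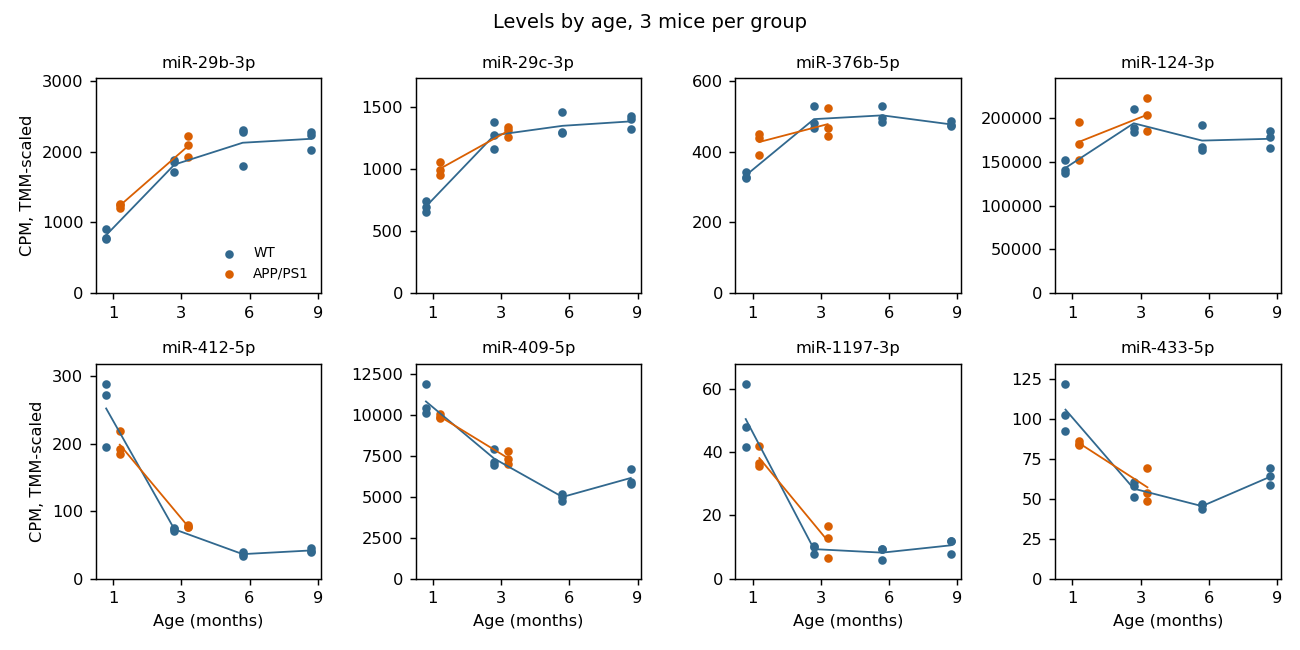
Level (CPM) of 8 miRNAs in WT libraries at 1, 3, 6 and 9 months (blue) and APP/PS1 libraries at 1 and 3 months (orange), with a point for each library and a line through the group means. At every later age the WT libraries of miR-29b-3p and miR-29c-3p lie above, and those of miR-412-5p and miR-1197-3p below, all WT libraries at 1 month.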

How the data were processed

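Per the labels' protocols, RNA was extracted with Trizol from frozen tissue and TruSeq small RNA libraries were read. Per the submitters' processing notes, the tools used were cutadapt 1.14, Trimmomatic 0.36, BLAST 2.6.0, miRBase 21.0, miRDeep2 2.0.0.8 and edgeR. How reads were counted, how those matching more than 1 name were shared out, and on which genome build, is not stated in the sources used here. The table deposited by the authors holds raw counts for 1927 names in 24 libraries (802 at 0 throughout, 0 sample columns unused). Replicates varied far beyond counting noise, so that the spread between libraries limits the precision (chi-square per degree of freedom 59.0 at 1 month and 91.9 at 3 months). In it, differences between mice and between library preparations cannot be told apart.

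Here names were kept by edgeR's filter (minimum count 10, minimum total 15), which left 433, 9 of them predicted. Among these, 15 sets with 32 names had identical counts and are not independent. After TMM scaling, edgeR 4.0.16 in R 4.3.3 fitted a quasi-likelihood model to all 24 libraries, with 1 mean per group, 16 residual and 4.64 prior degrees of freedom and a common biological variation of 18.6%. Calls were made at 0.05 after Benjamini-Hochberg adjustment within a comparison. The p-values set a change against the spread between libraries within groups, estimated over all 24 libraries. The SE of a log2 fold change is its size over the root of its F. Arm ratios, log2 of 5p over 3p counts with 0.5 added to each, were fitted in limma 3.58.1. The analysis was tested on simulated data with as many rises as falls, which did not test the choice of scaling factors.

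The members, the lists of miRNAs and the tests were chosen with earlier results of these data known. Named were up to 14 higher and 14 lower passing miRNAs of smallest p without overlap (11 passed as higher), up to 4 passing members per list, the miR-29 and oligodendrocyte lists, 4 neuronal miRNAs, the other arms of the named ones, the 5 most abundant, and the 3 with the smallest p in the comparison of genotypes (5 for passing arm ratios), besides names marked as chosen after their values were seen. Alternatives were RLE, upper quartile and no scaling factors, DESeq2 1.42.0, no filter, a replicate block, the libraries of the comparison alone, each library left out, and, for arm ratios, another pseudocount and a count minimum. Data on mRNA were not analysed here.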

Additional observations from a re-analysis of the deposited data

How the results depend on the processing

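Of the 42 WT calls, between 22 and 42 still passed in an alternative, each taken singly, and 0 changed sign. In the fits that left out 1 library, 23 of the 42 passed every time. How many passed in all alternatives together was not counted. Leaving out 1 library gave 28 to 42 calls, lowest without WT 3-month replicate 2, and DESeq2 gave 58. Same-numbered libraries of the 2 ages correlated in their deviations at r = 0.13, -0.26 and 0.02 in WT and 0.42, 0.16 and -0.04 in APP/PS1. Not every pair deviated together in either genotype, which does not settle whether same-numbered libraries share more than a number. The main fit used no replicate block. With the block in all libraries 41 passed in WT. In the 6 WT libraries alone 51 passed without the block and 26 with it, and in the 6 APP/PS1 libraries alone 6 passed without it and 60 with it.

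For APP/PS1, the 8 calls became 3 with upper quartile factors, 14 with unscaled library totals, 60 with the replicate block in its 6 libraries alone, 15 in DESeq2, and 4 to 8 with 1 library left out. For the difference between genotypes, the count of 0 became 2 without a filter, 1 in the 12 libraries alone, with or without the replicate block, 3 in DESeq2, and 0 to 2 with 1 library left out. The 4 arm ratios became 0 in the 6 libraries alone and 3 to 5 with 1 library left out.

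Of the named miRNAs, only some that did not pass changed sign. With unscaled library totals miR-99a-5p was at -0.0441, miR-9-3p at -0.0724, miR-124-5p at -0.14, miR-128-3p at -0.17 and miR-376b-3p at -0.17, and with upper quartile factors miR-128-3p was at -0.0018. With 1 library left out the log2 fold change ran from -0.23 to 0.051 for miR-17-5p, from -0.21 to 0.0226 for miR-543-3p, from -0.14 to 0.0799 for miR-9-5p, from -0.0212 to 0.15 for miR-124-5p, from -0.0708 to 0.0748 for miR-128-3p and from -0.047 to 0.15 for miR-376b-3p. The cause of these changes was not tested.

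With 3 mice per group, single changes under the spread between mice could not be detected, and miRNAs with few counts, such as miR-338-3p, allow no firm statement. How reads shared by near-identical names were counted is not given here.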

Other observations

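The names in this section, other than those of lists, were chosen after their values were seen. Both arms of miR-384, a brain miRNA whose 5p arm carries the miR-30 seed, lay higher at 3 months without overlap and did not pass. miR-384-3p stood at 3.47, 2.50 and 2.70 CPM at 1 month and at 4.42, 5.72 and 7.41 CPM at 3 months (log2 fold change 1.03, edgeR adjusted p = 0.0771), and miR-384-5p had a log2 fold change of 1.12 (adjusted p = 0.116). Each rests on 4 to 34 counts per library. miR-16-5p, the most counted of 6 tested members of the miR-15, miR-16 and miR-195 list (median 0.36, 0 passing), stood at 3833, 3191 and 3475 CPM at 1 month and at 4929.5, 5620.1 and 4322 CPM at 3 months (0.50, adjusted p = 0.0601). The pair of tested names of the miR-34 and miR-449 list, of which 0 passed, had a median of 0.50. Those of other imprinted loci had 0.11 and those of the Hox clusters 0.06.

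Of 28 tested names of the Sfmbt2 cluster, a rodent-specific array of repeated hairpins in an imprinted gene, 0 passed and 26 lay below 0 (median -0.41), but they hold only 19 distinct sets of counts. Over all tested names 231 of 433 lay below 0. Of the 28, 11 lay lower and 0 higher without overlap, beside 18.0% lower and 15.7% higher over all tested names. The sum of the cluster was 267, 307 and 272 CPM at 1 month and 252.8, 165.8 and 217.7 CPM at 3 months, so no 3-month library reached the 1-month range.

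The largest negative log2 fold changes that did not pass came from the cluster of miRNAs within the serotonin receptor gene Htr2c, and rested on 1 library. miR-1298-5p stood at 127, 1134 and 230.3 CPM at 1 month and at 207.8, 108.6 and 274.1 CPM at 3 months (-1.34, edgeR adjusted p = 0.16). miR-448-3p stood at 16.5, 145.7 and 29.3 CPM and then 25.1, 11.1 and 33.3 CPM (-1.47, adjusted p = 0.113), and miR-1912-3p at 6.94, 44.7 and 6.36 CPM and then 7.45, 2.95 and 8.28 CPM (-1.65, adjusted p = 0.102). WT 1-month replicate 2 was the highest library for each, as it was for the choroid plexus list, and the other 1-month libraries overlapped those at 3 months. The part of choroid plexus tissue in this was not tested.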
